A study of Mus musculus with 6 samples.

Results

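Dnm1l (ENSMUSG00000022789) is the mouse gene that encodes DRP1, and its transcripts were compared between WT and Drp1KO bone marrow–derived macrophages (BMDMs). All transcripts whose identifier belongs to Dnm1l in the GRCm39 annotation were taken, with no filter on level. There were 7 of them among the 116873 transcripts in the tables, and each had at least 10 estimated counts in total. The RNA came from 3 WT and 3 Drp1KO cultures after 8 hours of hypoxia and serum starvation (HSS), a culture model of ischemia at 2.1% oxygen according to the labels (2% according to the methods). Drp1KO cells came from LysM-Cre+/- Drp1 fl/fl mice and WT cells from LysM-Cre+/- Drp1+/+ mice, so both groups carried the Cre transgene, which the myeloid LysM promoter drives. The mice were of both sexes and 8 to 12 weeks old. Marrow of 2 mice was pooled per genotype, and the sources do not say whether each library came from its own pool, so the p-values measure the spread between these libraries only. Cultures without HSS were not analysed here.

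DRP1 is a large GTPase of the dynamin superfamily. It is recruited from the cytosol by receptors on the outer mitochondrial membrane, assembles into spirals around the organelle and constricts it by GTP hydrolysis, and it also acts in the division of peroxisomes. Its mRNA is alternatively spliced at an exon in the GTPase domain, called the A insert, and at a pair of neighbouring exons in the variable domain, called the B insert, and the longest combinations are known from brain.

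The gene lies at chr16:16128677-16176904 of GRCm39, on the minus strand. Dnm1l-201 has 18 exons and holds neither the A insert nor the B insert exons. Dnm1l-202 differs from it by a single added exon of 39 bases, the A insert, at chr16:16160561-16160599. Dnm1l-203 begins at another first exon, carries both B insert exons, of 78 bases (chr16:16136628-16136705) and 33 bases (chr16:16136309-16136341), and its annotated start codon lies farther downstream. Dnm1l-204 begins at the same alternative first exon, carries the 33-base exon, and lacks an exon of 47 bases (chr16:16159286-16159332). That exon is not a multiple of 3 bases long, and the annotated start codon of Dnm1l-204 lies just upstream of the exon's place. Dnm1l-207 uses the first exon of Dnm1l-201, carries the 33-base exon, and extends the second of its exons by 18 bases (chr16:16163844-16163861). Dnm1l-205 is short, with 6 exons of which the last is extended, and Dnm1l-206 holds only the last 4 exons with a retained intron and has no annotated reading frame. The short stretches by which the full-length forms differ are shown, since the estimates of those forms turn on them. They were read from the GRCm39 genome and are written 5′ to 3′ on the transcribed strand, with the stretch in question in capitals and the 15 spliced bases on each side in lower case. In the last of them the capitals mark the bases that follow the joint in Dnm1l-204.
39-base exon of Dnm1l-202: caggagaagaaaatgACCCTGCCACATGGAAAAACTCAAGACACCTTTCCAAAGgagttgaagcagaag
18-base extension of Dnm1l-207: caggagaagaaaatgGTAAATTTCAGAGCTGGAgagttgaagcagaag
47-base exon of Dnm1l-201: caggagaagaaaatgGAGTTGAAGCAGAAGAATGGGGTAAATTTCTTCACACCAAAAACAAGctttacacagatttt
78-base exon of Dnm1l-203: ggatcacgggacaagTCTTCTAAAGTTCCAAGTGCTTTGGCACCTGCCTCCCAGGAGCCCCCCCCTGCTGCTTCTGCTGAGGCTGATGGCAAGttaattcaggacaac
33-base exon of Dnm1l-203: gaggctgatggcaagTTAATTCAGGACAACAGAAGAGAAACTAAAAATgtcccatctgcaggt
joint of Dnm1l-204 without the 47-base exon: caggagaagaaaatgCTTTACACAGATTTT

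**Figure D1:**
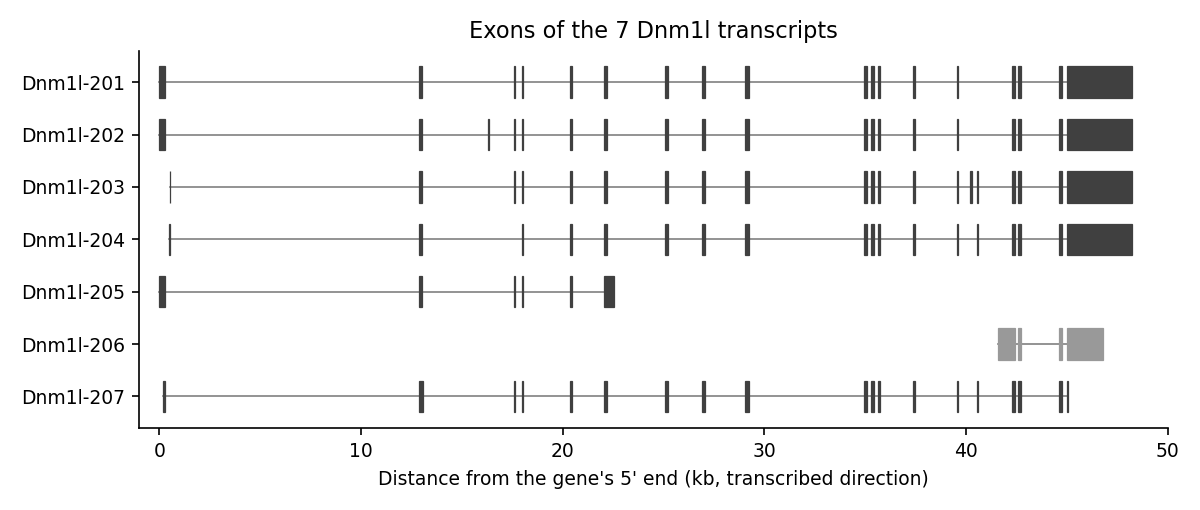
Exon maps of the 7 Dnm1l transcripts, with the distance from the gene's 5′ end in kb on the x axis, filled boxes for exons and lines for introns, drawn from the annotation. Dnm1l-203 and Dnm1l-204 start at a separate first exon, and Dnm1l-206 (grey) covers only the 3′ part.

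In the annotated sequences, little separates these forms. Of the 31-base words in the annotated sequence of Dnm1l-201, 0 of 5419 occurred in it alone among the 7 transcripts. Dnm1l-202 had 68 words of its own, Dnm1l-203 had 103, Dnm1l-204 had 41 and Dnm1l-207 had 47, while Dnm1l-205 had 368 and Dnm1l-206 had 666. Only 2 of the 7, Dnm1l-206 and Dnm1l-207, were in the tables with the version that the annotation holds, and the other 5, Dnm1l-201 among them, were shorter in the tables. The words of the sequences that kallisto indexed were not counted and may differ. The annotation now lists 78 Dnm1l transcripts, and forms outside the tables could only be counted as these 7.

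The summed level of Dnm1l was lower in the Drp1KO libraries by a modest amount. In counts scaled to library size (CPM, with TMM factors) the gene stood at 72.7, 69.9 and 75.1 in WT libraries 1 to 3 and at 58.7, 60.7 and 66.3 in Drp1KO libraries 1 to 3. The WT mean was 72.6 ± 2.61 (SD, n = 3) and the Drp1KO mean 61.9 ± 3.91 (SD, n = 3), or 0.853 of WT, and the groups did not overlap. This was so for 21.9% of all genes tested. In edgeR's quasi-likelihood test the log2 fold change was -0.23 (SE 0.0921, 95% interval -0.43 to -0.02) with an adjusted p of 0.248, against the 3.36% of genes called at an adjusted p under 0.05, so the gene did not pass. With the replicate number as a block the adjusted p was 0.0738, and with a correction for GC content added to the block, chosen after seeing the data, it was 0.0129 at a log2 fold change of -0.34, in a setting that called 11.2% of all genes. Fewer cells expressing the gene and less of its RNA per cell cannot be told apart in bulk RNA.

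These values do not measure the deletion itself. The sources do not state which exons the floxed allele loses, a transcript estimate joins reads from all exons, and an mRNA that lacks exons would still be counted on the reference transcripts. The gene's level is therefore no direct check of the genotype labels.

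By transcript, on the TPM scale, which divides by transcript length and library total, Dnm1l-201 led in all 6 libraries. It stood at 20.1, 16.6 and 21.8 TPM in WT libraries 1 to 3 and at 14.6, 12.8 and 13.7 TPM in Drp1KO libraries 1 to 3. All 3 Drp1KO values lay below the lowest WT value. Its log2 fold change was -0.43 (SE 0.143, 95% interval -0.76 to -0.09) with an adjusted p of 0.356 in edgeR's test over 62020 transcripts, so it did not pass.

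Dnm1l-207, the form with the 18-base extension and the 33-base exon, had the lowest p of the 7. Its level was 4.76, 4.98 and 4.45 TPM in WT and 1.96, 1.83 and 1.54 TPM in Drp1KO libraries. The highest Drp1KO value was well under the lowest WT value, and the Drp1KO mean of 1.78 ± 0.216 TPM was 0.375 of the WT mean of 4.73 ± 0.264 TPM (SD, n = 3 each). The estimated counts behind it were 142, 165 and 151 in WT and 58.7, 77.8 and 62.6 in Drp1KO libraries. The log2 fold change was -1.32 (SE 0.247, 95% interval -1.90 to -0.74), with an unadjusted p of 0.00102 and an adjusted p of 0.0999 by edgeR's quasi-likelihood test, so it did not pass. DESeq2 called it at an adjusted p of 7.2e-05. The log2 fold change kept between -1.44 and -1.20 in every alternative run, and the adjusted p by the others than DESeq2 ran from 0.0700 to 0.304. Of the 31-base words of Dnm1l-207, 299 of 2121 also occur in the processed pseudogene Gm13719, so reads from those words could not be assigned with certainty. Over all 7 transcripts, 459 of 6809 words occur in a transcript of another gene. The limit therefore also holds for other forms and for the gene's summed level.

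The forms that begin at the alternative first exon had higher means in Drp1KO libraries, but neither passed. Dnm1l-203, with both B insert exons, stood at 4.48, 4.76 and 5.09 TPM in WT libraries. In Drp1KO libraries it was 3.01, 7.52 and 8.86 TPM, so Drp1KO library 1 lay below every WT library and libraries 2 and 3 above. Its log2 fold change was 0.50 (SE 0.345, adjusted p 0.728), and by the same edgeR test 0.82 (adjusted p 0.119) without Drp1KO library 1 and 0.24 (adjusted p 0.9504) without Drp1KO library 3. Dnm1l-204, which lacks the 47-base exon, was at 0.863, 1.41 and 1.32 TPM in WT and at 2.40, 1.89 and 1.66 TPM in Drp1KO libraries. The groups did not overlap, and the log2 fold change was 0.81 (SE 0.322, 95% interval 0.05 to 1.57) with an adjusted p of 0.449. It was 0.46 without replicate 1 of both groups and 0.95 without WT library 2.

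The remaining forms varied within their groups. Dnm1l-202, with the A insert, was at 1.66, 2.57 and 1.95 TPM in WT and at 0.963, 0.621 and 2.06 TPM in Drp1KO libraries, with a log2 fold change of -0.69 (SE 0.448, adjusted p 0.700), which was -1.26 without Drp1KO library 3 and -0.37 without Drp1KO library 2. Dnm1l-205 was at 1.29, 3.78 and 1.59 TPM in WT and at 0, 1.52 and 0.555 TPM in Drp1KO libraries, and its log2 fold change of -1.57 had an SE of 1.09 (adjusted p 0.731). That value rested on single libraries, at -2.88 without Drp1KO library 2 and -0.94 without WT library 2. The listed 0 in Drp1KO library 1 allows up to 3 counts, or 0.232% of that library's Dnm1l counts, for counting error only. Dnm1l-206, the retained-intron form, was at 2.23, 3.68 and 4.95 TPM in WT and at 3.92, 3.61 and 4.34 TPM in Drp1KO libraries, with a log2 fold change of 0.24 (SE 0.280, adjusted p 0.897), which was 0.02 without WT library 1 and 0.48 without WT library 3.

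**Figure D2:**
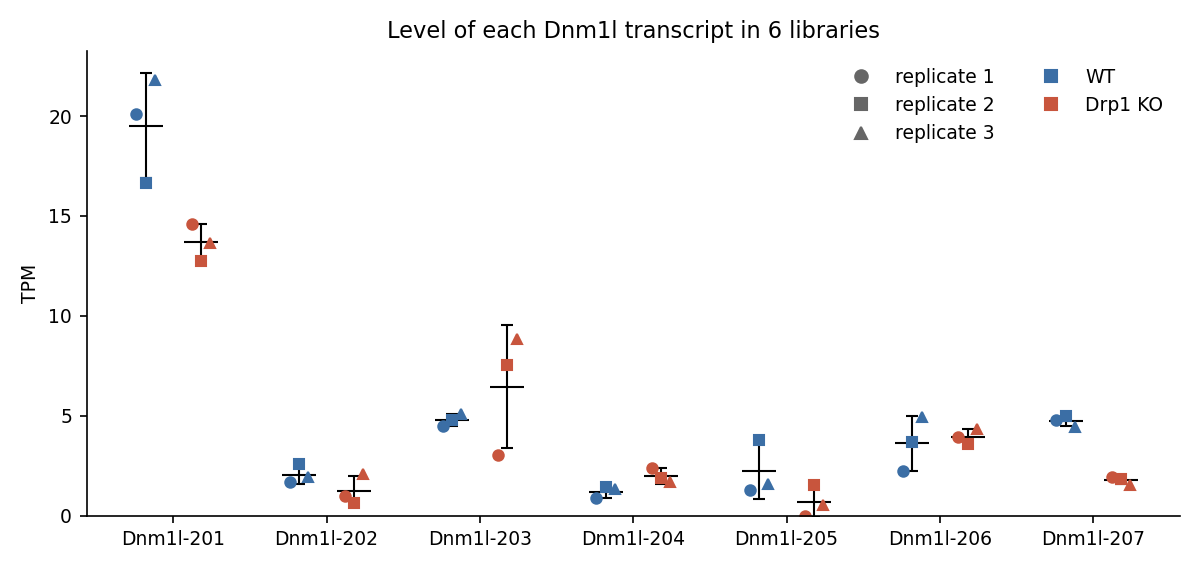
TPM of each Dnm1l transcript in the 6 libraries, with points for libraries (marker shape for the replicate number) and black bars for the group mean ± SD. Dnm1l-207 averages 4.73 TPM in WT and 1.78 TPM in Drp1KO libraries with no overlap, while Dnm1l-203 splits the Drp1KO libraries.

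At an adjusted p under 0.05, 0 of the 7 transcripts passed in edgeR's test, against 0.332% of all transcripts tested. At an unadjusted p under 0.05, 3 of 7 did (Dnm1l-201, Dnm1l-204 and Dnm1l-207), against 10.3% of all. DESeq2 called 1 of 7 (Dnm1l-207), against 5.85% of the transcripts it gave an adjusted p, and limma-voom called 0 of 7, against 0.379%. In TPM, 3 of 7 did not overlap between the groups, against 17.7% of all transcripts tested. A separation of 3 against 3 libraries gives an exact two-sided permutation p of 0.1 at the smallest, so that test cannot pass 0.05 here.

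**Figure D3:**
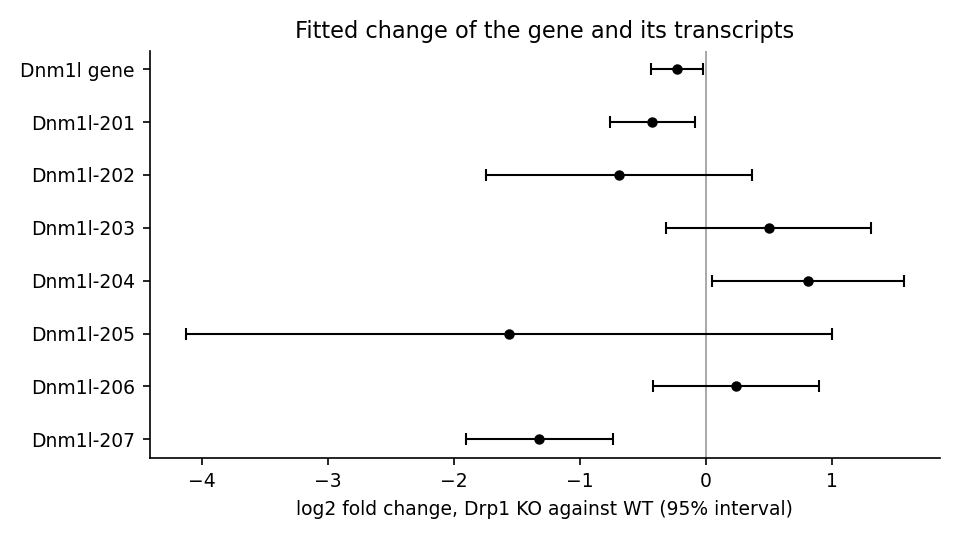
Fitted log2 fold change of Drp1KO against WT for the Dnm1l gene and its 7 transcripts from edgeR, with 95% intervals on the x axis. The intervals of the gene, Dnm1l-201, Dnm1l-204 and Dnm1l-207 leave out 0, although none passed after adjustment over all features.

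The make-up of the gene was then compared as each transcript's percentage of Dnm1l TPM. Dnm1l-201 made up 56.8%, 44.0% and 53.0% in WT and 54.4%, 42.9% and 41.8% in Drp1KO libraries. The means of 51.3 ± 6.57% and 46.4 ± 6.95% (SD, n = 3) overlapped, with an exact two-sided permutation p of 0.4. Dnm1l-207 was 13.5%, 13.2% and 10.8% in WT and 7.29%, 6.15% and 4.71% in Drp1KO libraries. Dnm1l-204 was 2.44%, 3.73% and 3.21% in WT and 8.95%, 6.34% and 5.09% in Drp1KO libraries. Dnm1l-206 was 6.30%, 9.72% and 12.02% in WT and 14.6%, 12.1% and 13.3% in Drp1KO libraries. For these last 3 the groups did not overlap, each with an exact permutation p of 0.1, and 16.5% of the transcripts of genes with several transcripts separated in this way. Dnm1l-203 went from a narrow 12.4% to 12.7% in WT to 11.2%, 25.3% and 27.1% in Drp1KO libraries.

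**Figure D4:**
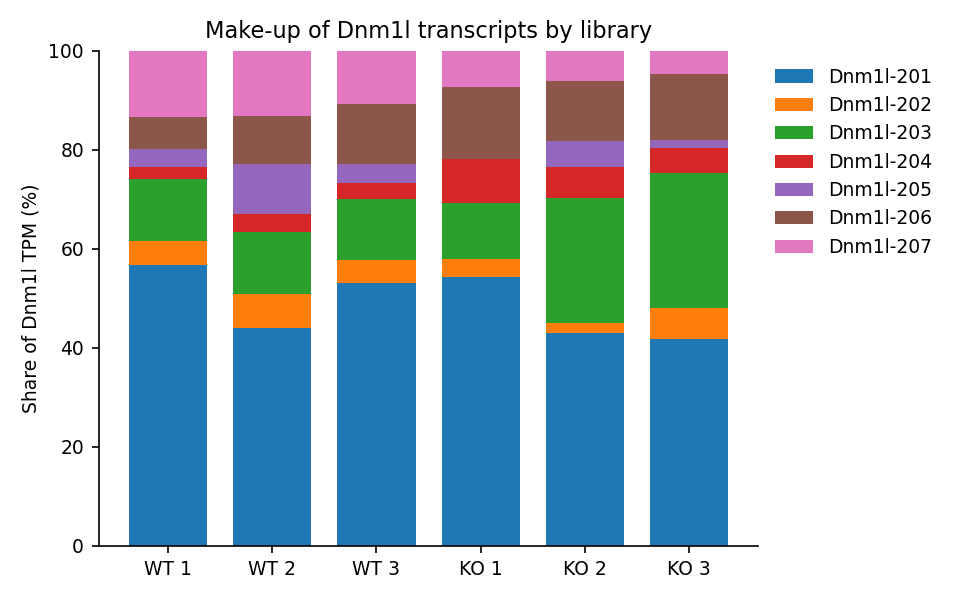
Percentage of Dnm1l TPM carried by each of the 7 transcripts, stacked for each library on the x axis. Dnm1l-201 takes the largest share in all 6 libraries, and the Dnm1l-207 share is at most 7.29% in Drp1KO against at least 10.8% in WT libraries.

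A test of whether the transcripts of a gene move unequally (diffSpliceDGE of edgeR) gave Dnm1l a p of 0.0142 and an adjusted p of 0.148, so it did not pass, against 4.68% of the genes with several transcripts. It passed without Drp1KO library 1 (adjusted p 0.0269) and with limma's diffSplice (adjusted p 0.0419). The share of all genes called under those settings is not given here. The Simes form of the edgeR test gave an adjusted p of 0.738. Relative to the rest of the gene, Dnm1l-207 had a log2 change of -1.09 and Dnm1l-204 of 1.04, and neither passed singly (adjusted p 0.679 and 0.999992).

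The transcripts were also added by the exons they hold. These groupings follow the gene structure and were made after the transcript values were known, so they are given without a test. Transcripts from the first exon of Dnm1l-201 (Dnm1l-201, Dnm1l-202, Dnm1l-205 and Dnm1l-207) summed to 27.8, 28.0 and 29.8 TPM in WT and to 17.5, 16.7 and 17.8 TPM in Drp1KO libraries, a mean of 0.609 of WT. Those from the alternative first exon (Dnm1l-203 and Dnm1l-204) summed to 5.34, 6.18 and 6.41 TPM in WT and to 5.42, 9.41 and 10.5 TPM in Drp1KO libraries. The alternative first exon therefore took 15.1%, 16.3% and 15.6% of Dnm1l TPM in WT and 20.2%, 31.6% and 32.2% in Drp1KO libraries. Transcripts with the 33-base exon (Dnm1l-203, Dnm1l-204 and Dnm1l-207) summed to 10.1 to 11.2 TPM in WT and 7.38 to 12.1 TPM in Drp1KO libraries. This sum overlapped between the groups, and its members had fold changes of different sign.

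**Figure D5:**
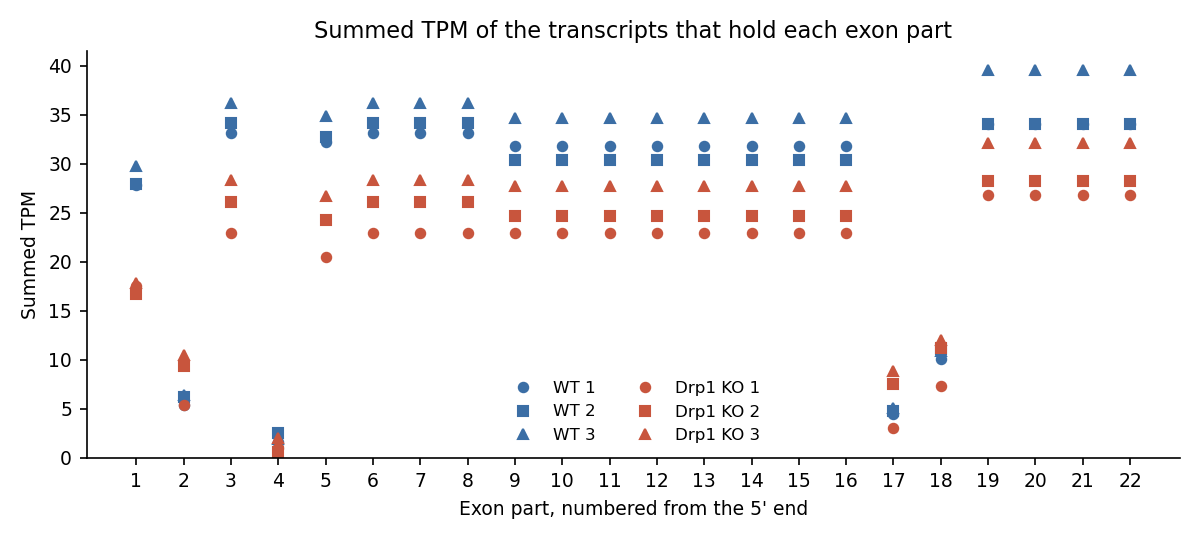
Summed TPM of the transcripts holding each of 22 exon parts, numbered from the 5′ end, for WT (blue) and Drp1KO (red) libraries. Parts held by the same transcripts repeat the same sum, so the 22 parts show 9 distinct sums. The groups overlap at parts 2, 4, 17 and 18, which are the alternative first exon, the A insert and the B insert exons.

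These sums are added transcript estimates and not read coverage of the exons, so a missing stretch would not show as a gap. TPM is scaled to each library's total, and over all genes the median log2 ratio of Drp1KO to WT mean TPM was -0.08, against 0.00 in CPM. The Dnm1l ratio was -0.36 on the TPM scale, or -0.27 relative to that median.

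Among genes of mitochondrial and peroxisomal division and its control (receptors, adaptors, kinases, ligases and fusion GTPases), 1 of 35 passed, or 2.86% against 3.36% of all genes. It was Marchf5, an outer-membrane ubiquitin ligase that acts on DRP1, at 79.8, 66.3 and 65.2 CPM in WT and 113, 94.9 and 94.2 CPM in Drp1KO libraries (log2 fold change 0.52, SE 0.116, adjusted p 0.0408 by edgeR). The call was lost under 7 of the other settings, among them each library left out except WT library 1. The log2 fold change of Marchf5 lay between 0.41 and 0.61 over all the other settings. The median log2 fold change of the list was 0.05, against 0.00 over all genes. Of the DRP1 receptors, Mff had a log2 fold change of 0.30 (adjusted p 0.149, and 0.0405 with the replicate block). Under the block 2 of 35 passed, or 5.71%, against 12% of all genes. With GC correction added to the block Mff was 0.21 (adjusted p 0.127) and did not pass, and it passed in 2 of the other settings in all. Fis1, Mief1 and Mief2 had log2 fold changes of 0.05, 0.14 and -0.21 (adjusted p 0.904, 0.653 and 0.516). Mief1 was 0.02 without Drp1KO library 1 and 0.22 without Drp1KO library 3. Mief2 was -0.12 without WT library 1 and -0.29 without WT library 2.

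Of the other dynamin superfamily genes, 2 of 8 passed, or 25.0% against 3.36% of all genes, both interferon-induced antiviral GTPases. Mx1 was at 34.4, 34.3 and 24.1 CPM in WT and 89.8, 103 and 125 CPM in Drp1KO libraries (log2 fold change 1.78, SE 0.164, adjusted p 0.000433 by edgeR). Mx2 was at 2.41, 3.67 and 2.18 CPM in WT and 7.54, 12.4 and 14.2 CPM in Drp1KO libraries (log2 fold change 2.05, SE 0.271, adjusted p 0.00312 by edgeR). The classical dynamins Dnm1, Dnm2 and Dnm3, which act in endocytosis, had log2 fold changes of -0.67, -0.10 and 0.29 (adjusted p 0.328, 0.744 and 0.788). With single libraries left out they lay between -0.87 and -0.42, between -0.23 and -0.01, and between 0.06 and 0.52. The lowest and highest values came without WT libraries 3 and 1 for Dnm1, without Drp1KO libraries 1 and 3 for Dnm2, and without WT libraries 1 and 2 for Dnm3. Outside these ranges, Dnm3 was 0.87 with length-scaled counts and Dnm1 was -0.24 without replicate 1 of both groups. The fusion GTPases Mfn1, Mfn2 and Opa1 had -0.19, -0.10 and -0.16 (adjusted p 0.490, 0.663 and 0.414), and Mfn2 was -0.06 without Drp1KO library 2 and -0.15 without Drp1KO library 1.

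Around the floxed locus, 30 genes within 1 Mb of Dnm1l were tested and 0 passed in edgeR's test, against 3.36% of all genes, and 0 under each other setting, DESeq2 and limma-voom included, which called 1% to 12% of all genes. At an unadjusted p under 0.05 there were 3, against 16.4% of all genes. The nearest tested genes that do not overlap Dnm1l were Pkp2, a desmosome component, 38091 bases from the 3′ end of Dnm1l (log2 fold change -0.40, adjusted p 0.544) and Fgd4, a Cdc42 exchange factor, 57871 bases from its 5′ end (0.25, adjusted p 0.475). With single libraries left out Pkp2 lay between -0.67 (no Drp1KO library 3) and -0.24 (no WT library 2), and Fgd4 between 0.15 (no Drp1KO library 3) and 0.39 (no Drp1KO library 1). Yars2, the mitochondrial tyrosyl-tRNA synthetase, overlaps Dnm1l in the annotation and stood at 4.17 ± 0.580 CPM in WT and 4.16 ± 0.245 CPM in Drp1KO libraries (SD, n = 3).

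By Pearson's r of log2 CPM over the 6 libraries, the 5 genes most like Dnm1l among 12247 were Slc4a2 (r = 0.994), Twf1 (0.990), Gm21981 (0.987), Cntrob (0.987) and Abca2 (0.986). Since Dnm1l separated the groups in these same libraries, the choice fixed their lower means in Drp1KO libraries, and they are named as a description with no test.

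Library depth was 23389488 to 32231206 estimated counts, and Drp1KO library 1, in which Dnm1l-203 was low and Dnm1l-205 listed at 0, was the shallowest. The marker levels that follow are CPM by library size alone, without the TMM factors used for the other genes. All 8 macrophage markers were measured, with a summed level, mostly of Lyz2, of 13817 to 14229 CPM in WT and 12246 to 14703 CPM in Drp1KO libraries. By edgeR's test 1 was higher in Drp1KO libraries, Fcgr1 (log2 fold change 1.34, adjusted p 0.000322), and 2 were lower, Csf1r (-0.52, adjusted p 0.0340) and Mertk (-0.52, adjusted p 0.0236). The neutrophil markers summed to 6.09 to 19.5 CPM and 17.4 to 45.2 CPM, with Ly6g at 0, and those of dendritic cells, fibroblasts and lymphocytes to at most 5.91 CPM in any library. The endothelial list summed to 25.7 to 30.0 CPM in WT and 38.7 to 41.7 CPM in Drp1KO libraries, with Cdh5 at or under 0.593 CPM in each library. Of it 1 gene was called by edgeR, Kdr, which was higher (log2 fold change 0.94, adjusted p 0.0144). Pecam1 was not called (log2 fold change 0.25, adjusted p 0.353 by edgeR). It stood at 16.3 to 18.6 CPM in WT and 18.5 to 23.5 CPM in Drp1KO libraries, and the small overlap depends on this scale. The part of depth and of these markers in the Dnm1l values was not tested.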

How the data were processed

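RNA from BMDMs was sequenced as paired-end poly(A) libraries. The sources differ on the kit for extraction, the library kit, the share of L929 medium (10% in the labels, 20% in the methods) and the oxygen level. The authors quantified reads with kallisto 0.46.1 (named in the submitters' processing notes) against Ensembl cDNA of GRCm39, whose release is not given in the sources used here, and whether strand was used is not stated. For every transcript in a library, the authors deposited a TPM value beside its estimated count. Estimated counts are neither whole nor scaled between libraries.

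Identifiers were looked up in GENCODE vM39 for GRCm39 (116159 of 116873, 99.4%, on 36137 genes). Between 0.542% and 0.575% of a library's counts lay on unmatched transcripts and were left out. Counts were rounded, per transcript or after adding per gene, and features with at least 10 in total were tested with edgeR 4.0.16 in R 4.3.3 (TMM, quasi-likelihood test, no covariate, all genes or transcripts in the fit, Benjamini-Hochberg adjustment, threshold 0.05). Standard errors are the fold change over the square root of F. Transcript usage was tested with diffSpliceDGE. Alternatives were DESeq2 1.42.0, limma 3.58.1, other scalings and filters, length-scaled counts and leaving out each library. A GC correction and leaving out replicate 1 of both groups were chosen after seeing the data. The main edgeR quasi-likelihood test and diffSpliceDGE were first tested on simulated data, and the alternatives were not. The 95% intervals of fold changes carry the spread between libraries, and the floor of 3 counts covers counting error only.

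The members, gene lists and tests were chosen with earlier results of these data known. Named were every Dnm1l transcript, fixed DRP1 partners and dynamins, the nearest neighbours, any list member that passed, and the 5 genes most correlated with Dnm1l (mean CPM of 1 or more). Yars2 overlaps Dnm1l and was named after its values were seen. Same-numbered libraries deviated together (correlations 0.510, 0.204 and 0.298 over 12248 genes), so the labels' replicate numbers were taken to pair them, from the data. The pairing was not specific to the numbers, since WT library 2 correlated more with Drp1KO library 3 (0.326) than with Drp1KO library 2. No pair of libraries agreed within sampling noise (chi-square per degree of freedom at least 9.50).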

Additional observations from a re-analysis of the deposited data

How the results depend on the processing

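The gene-level difference of Dnm1l had the same sign in all 17 alternatives, with log2 fold changes from -0.35 to -0.19, and passed only with the replicate block and GC correction together, a pairing chosen after seeing the data (-0.34). With the replicate block alone its adjusted p was 0.0738 at -0.23, and no Dnm1l call changed under the block alone, where no transcript of any gene passed. The number of Dnm1l transcripts passing was 0 in each alternative but DESeq2, where it was 1. Without WT library 2 or 3 or Drp1KO library 2 or 3, only 3 to 17 transcripts passed in all, so 0 there says nothing about Dnm1l. Adjusted p for isoform usage was 0.0419 with limma's diffSplice, and lay between 0.0269 (no Drp1KO library 1) and 0.455 when single libraries were dropped. Dropping single libraries, the Drp1KO minus WT share of Dnm1l-201 was -8.91 to -2.15 percentage points. The division list had 0 calls with size factors by the median of ratios and with length-scaled counts (against 3.26% and 2.43% of all genes). It had 2 with the replicate block, with or without GC correction (against 11.2% and 12% of all genes), and Mff was among them only without that correction. Without replicate 1 of both groups the list had 7 calls (20%), where 10.5% of all genes were called. Dropping single libraries gave 0 to 1, against 1% to 4.96% of all genes. Dnm1l-206 turned to -0.0103 without replicate 1 of both groups. When single libraries were dropped, Fis1 lay between -0.0166 and 0.135 and Yars2 between -0.126 and 0.0540. Yars2 was 0.00762 with the replicate block, 0.0799 without replicate 1 of both groups, 0.0199 with limma-voom and 0.0944 with length-scaled counts. Over all features, 621 genes passed, 2212 with the replicate block and 1155 with DESeq2, while of the transcripts 0.332% passed, 0 with the block (7231 at an unadjusted p under 0.05) and 2422 with DESeq2. Why the calls moved was not tested. Dnm1l-205 had only 139 estimated counts in total, and how far this limits its estimate was not tested.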
